A study of Rattus norvegicus with 8 samples.

Results

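The subunits of respiratory complex I that bind no iron-sulphur cluster were examined in rat liver, as 31 genes of the 14217 named genes on the array. Members were all genes whose probe sets carried exactly 1 platform symbol of the Ndufa, Ndufab1, Ndufb, Ndufc, Ndufs or Ndufv series, leaving out the 5 iron-sulphur subunits Ndufs1, Ndufs7, Ndufs8, Ndufv1 and Ndufv2 and the Ndufaf assembly factors. The rule found 34 probe sets, and where a gene had several, the one with the highest mean across the 8 arrays stood for it. Ndufs5 and Ndufa10 shared their probe sets with other symbols and were not analysed here. Expression was measured on Affymetrix arrays in livers of male Sprague-Dawley rats, an outbred strain, at 7 weeks of age, with 1 array per liver and 4 livers per group. Control rats ate a purified AIN93G-type diet in which Avicel replaced cellulose, and iron-deficient rats ate the same diet without its ferric citrate. Livers were taken on day 17 of the diets, after 1.5 h of feeding, when blood hemoglobin of the iron-deficient group stood at 42% of the control level, per the labels. The diets were fed to 6 and 7 rats, and the labels do not say which of them gave the arrays.

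Complex I passes electrons from NADH to ubiquinone and pumps protons across the inner mitochondrial membrane. Its matrix arm holds the flavin and the chain of iron-sulphur clusters, and its membrane arm holds the proton channels, whose central subunits are encoded by mitochondrial DNA. The genes described here encode mainly the nuclear accessory subunits that surround this core, together with Ndufs3, a core subunit of the matrix arm that carries no cluster. Liver is rich in mitochondria, and complex I there reoxidises the NADH of fatty acid and amino acid oxidation. Of the members, 29 encode complex I subunits. Ndufa4 was named as one but is now known as a subunit of cytochrome c oxidase, and Ndufa4l2 encodes its paralogue.

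Iron-deficient livers read lower for 28 of the 31 genes and higher for 3, where 52.8% of all genes read lower. Groups of 4 livers did not overlap for 8 genes, all lower in iron deficiency, beside a background of 4.40% of all genes that separated in that direction and 3.42% in the other. In limma, 12 of the 31 had an unadjusted p under 0.05, all lower, where 7.50% of all genes had such a p in that direction and 5.73% in the other. No member passed the adjusted p of 0.05 used as the threshold, which 0.0322% of all probe sets passed in either direction and 0.0211% of all genes in the lower one, and the lowest adjusted p in limma was 0.123. The median standardised difference, which is the difference between group means divided by the within-group SD, was -1.39 over the members and -0.07 over all genes. These values include Ndufa4 and Ndufa4l2. Of the 29 genes that encode complex I subunits, 26 read lower and 3 higher, and 7 separated the groups. In limma, 11 of the 29 were lower with an unadjusted p under 0.05, and the lowest adjusted p was 0.131. Their median standardised difference was -1.36. All these counts and directions hold for the values as deposited. Under quantile normalization 26 of the 31 genes read higher and 4 lower, where 40.6% of all genes read lower, and 15 members passed the adjusted threshold in limma, as did 1093 of all 31042 probe sets. Under median centring 30 read higher and 1 lower, where 9.19% of all genes read lower, and no member passed.

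The deposited differences are very small on their log2 scale. Over the 31 genes the absolute difference had a median of 6.92 millionths of a log2 unit (1e-06 log2 units), and the within-group SD ran from 0.462 to 66.5 millionths. Over all genes the corresponding medians were 5.29 millionths for the absolute difference and 8.73 millionths for the SD. The table's values are compressed, and unequally from probe set to probe set, so these differences are not fold changes, and their sizes cannot be compared between genes. Each liver is therefore described by its deviation from the control mean of that gene, in millionths of a log2 unit, and genes are compared only by standardised differences. A very small SD enlarges this measure. Ndufb11, the member with the lowest SD, had a standardised difference of -1.26 at an unadjusted p of 0.471 in limma. Levels on the log2 scale were above the 75th percentile of probe sets (8.26) for 30 members. Ndufa4l2, with a control mean of 7.13, lay near the median probe set (7.12), and whether it was above background is not known from these values. With RNA of whole liver, fewer hepatocytes and less RNA per hepatocyte cannot be told apart.

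**Figure D1:**
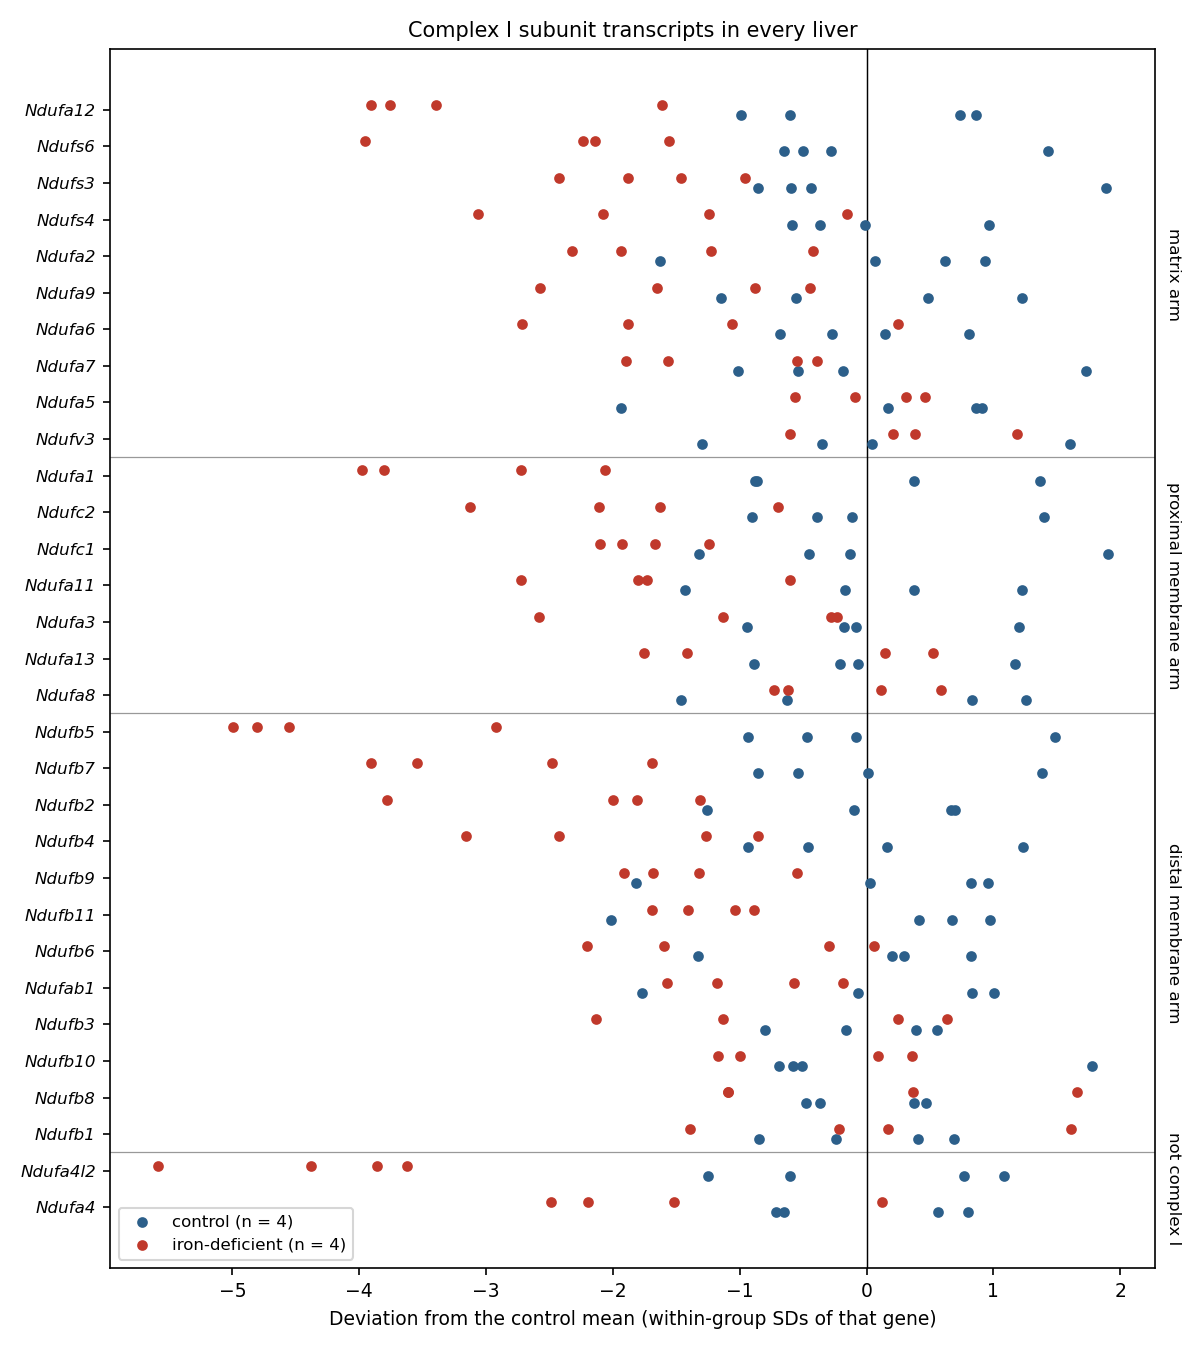
Deviation of every liver from the control mean of the gene (x axis, in within-group SDs of that gene) for the 31 genes (y axis), grouped by arm of complex I and ordered by standardised difference. Points are single livers, 4 control and 4 iron-deficient per gene. Groups are apart for 8 genes and overlap for the other 23, and 28 of the 31 have the lower mean in iron deficiency.

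The 5′ regions of these genes were read for letters bound by transcription factors known to act on nuclear respiratory genes, since most members read lower together. Promoter windows from RefSeq on build GRCr8, from 250 bases before to 50 bases after each gene's start, were found for 29 of the 31 genes by gene identifier. Both strands were searched, and different motifs did not overlap each other in the windows printed here. GCGCA followed by any base and GCGC, the letters of NRF1, stood in 6 of 29 windows (20.7%), against 4.71% of all 27457 windows and 8.50% of those of genes on the array. AAGATGGC, the letters of YY1, stood in 8 windows (27.6%), against 3.44% of all windows and 4.72% of those of array genes. CCGGAAG, the letters of GABPA, stood in 5 windows (17.2%), against 9.22% and 15.1%. TCAAGGTCA, the letters of ERRA, stood in none of the 29, against 0.412% of all windows. The YY1 letters were placed alike: in all 8 genes they read forward and began at or after the last base before the gene's start. Of all 945 windows with the letters, 37.5% held them in that place, and of those of array genes, 50.2%. These letters contain ATG, the triplet of a translation start, read in the direction of the gene. Whether the 8 sites are start codons, which would by itself give them this strand and place, was not tested. The 8 sites are shown with their flanks because they lie close to the start of the gene, with the YY1 letters in capitals, 30 bases each.
Ndufa4l2: gacactggaacAAGATGGCaggaaccagtc
Ndufs6: gggtcgtcggcAAGATGGCggcggcgctga
Ndufs4: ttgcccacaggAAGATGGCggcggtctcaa
Ndufa2: ctttgctagcaAAGATGGCggccgcaagcc
Ndufa9: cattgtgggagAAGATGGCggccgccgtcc
Ndufa6: gcttccttagcAAGATGGCggccgcggcca
Ndufa3: tgtccaagaccAAGATGGCtgctagtaagt
Ndufb8: cggagaaggtgAAGATGGCggcgtcccggg
Genes carrying the YY1 letters had a median standardised difference of -1.43, and those without them -1.52. For the NRF1 letters the medians were -1.82 with and -1.39 without. A match is a description of the sequence and was not tested as a binding site.

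Whole windows of 4 genes with low values in iron deficiency are shown, 3 for the motifs they hold and the fourth, Ndufb5, for being the complex I subunit with the smallest p while holding none of the 4 motifs. Capitals mark the motif letters on either strand, an NRF1 and a YY1 match in Ndufs6 (chr1:31797150-31797449, plus strand), overlapping NRF1 matches in Ndufa11 (chr9:1637364-1637663, plus strand) and GABPA matches in Ndufa1 (chrX:121293506-121293805, minus strand). The Ndufb5 window (chr2:117447355-117447654, plus strand) is in lower case throughout.
Ndufs6: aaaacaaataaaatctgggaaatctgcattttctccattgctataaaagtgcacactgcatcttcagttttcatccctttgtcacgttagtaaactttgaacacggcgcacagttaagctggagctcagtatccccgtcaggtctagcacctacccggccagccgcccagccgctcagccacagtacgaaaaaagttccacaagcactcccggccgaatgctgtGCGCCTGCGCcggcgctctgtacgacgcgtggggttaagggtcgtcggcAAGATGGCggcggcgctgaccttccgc
Ndufa11: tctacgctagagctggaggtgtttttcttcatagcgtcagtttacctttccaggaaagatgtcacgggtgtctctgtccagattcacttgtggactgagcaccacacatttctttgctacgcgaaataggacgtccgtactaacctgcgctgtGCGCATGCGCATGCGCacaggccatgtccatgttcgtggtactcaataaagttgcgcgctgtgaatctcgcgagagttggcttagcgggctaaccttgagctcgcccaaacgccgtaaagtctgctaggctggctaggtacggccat
Ndufa1: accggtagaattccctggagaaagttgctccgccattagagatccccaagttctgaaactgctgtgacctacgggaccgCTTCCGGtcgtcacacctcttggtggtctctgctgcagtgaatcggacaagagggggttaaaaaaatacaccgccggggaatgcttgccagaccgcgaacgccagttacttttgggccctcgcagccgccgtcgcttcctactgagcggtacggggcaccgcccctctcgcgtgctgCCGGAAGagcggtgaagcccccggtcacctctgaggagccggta
Ndufb5: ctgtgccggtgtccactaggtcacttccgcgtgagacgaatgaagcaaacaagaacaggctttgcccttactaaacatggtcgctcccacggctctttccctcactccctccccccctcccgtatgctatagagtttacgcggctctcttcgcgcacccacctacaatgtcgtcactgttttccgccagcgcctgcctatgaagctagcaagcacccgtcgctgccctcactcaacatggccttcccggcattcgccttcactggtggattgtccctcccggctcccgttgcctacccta

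In the matrix arm, 8 of 10 measured genes read lower and 2 higher, with a median standardised difference of -1.43, and 3 had an unadjusted p under 0.05. Ndufs6 (probe set 1370006_at), a zinc-binding subunit added late in assembly, stood at -17.2, -23.7, -24.8 and -43.8 millionths in the 4 iron-deficient livers and at -5.59, -3.10, 15.9 and -7.18 in the controls. Every iron-deficient liver was below every control, with iron-deficient replicate 4 lowest. The difference was -27.4 ± 7.52 millionths (SE, n = 4 per group), with an unadjusted p of 0.00922 and an adjusted p of 0.276 in limma. For every difference, the SE is limma's moderated SE, which draws on the spread of all tested probe sets. It can therefore exceed what a gene's own SD would give. Ndufa12 (1371605_at), a paralogue of the assembly factor Ndufaf2, whose place it takes in the mature complex, gave -1.25, -2.63, -2.91 and -3.03 millionths against 0.67, 0.57, -0.77 and -0.47. These groups were also apart, although by less than 1 millionth at their nearest values. Its difference of -2.46 ± 0.868 millionths had an unadjusted p of 0.0272 in limma, and the standardised difference was -3.17.

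Ndufs3 (1388364_at), the core subunit without a cluster, read -8.17, -12.4, -16.0 and -20.6 millionths in iron deficiency and -5.07, -7.29, 16.0 and -3.69 in controls. The groups did not overlap, but control replicate 3 stood far above the other controls. A difference of -14.3 ± 5.79 millionths resulted, with an unadjusted p of 0.0450 in limma. Without control replicate 3 the Ndufs3 difference was -8.95 millionths. Ndufs4, a late-added subunit whose human gene is mutated in Leigh syndrome, differed by -6.92 ± 2.94 millionths and its groups overlapped, since iron-deficient replicate 1 read -0.64. Ndufa9, which binds NADPH, differed by -6.98 ± 3.47 millionths, and Ndufa6, of the LYR family, by -11.4 ± 5.72. Ndufa2, with a thioredoxin-like fold, differed by -5.01 ± 2.40 millionths and Ndufa7 by -5.54 ± 3.48. None of these 4 separated the groups.

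Both members of the matrix arm that read higher did so by less than their SE. Ndufv3 (1368566_a_at), an accessory subunit near the flavin site, read 13.9, -40.2, 78.7 and 25.4 millionths in iron deficiency and 107, -86.3, -23.1 and 2.65 in controls, the widest spread of any member. Its difference was 19.5 ± 44.9 millionths, and its other probe set gave -12.8 ± 12.2. Ndufa5 (1386951_at) read 5.48, 8.09, -1.65 and -9.81 millionths against 2.89, -33.8, 15.0 and 15.9, with control replicate 2 far below the rest. The Ndufa5 difference of 0.530 ± 11.8 millionths became -10.7 without that control. Single livers thus set the direction for Ndufv3 and Ndufa5.

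In the proximal membrane arm, next to the quinone site, all 7 measured genes read lower, with a median standardised difference of -1.72, and 4 had an unadjusted p under 0.05. Ndufa1 (1388391_at), a small X-linked subunit needed for assembly, stood at -8.69, -16.0, -11.5 and -16.7 millionths in iron deficiency and at 5.76, -3.64, -3.70 and 1.59 in controls. It was the only gene of this arm whose groups did not overlap. The difference was -13.2 ± 2.93 millionths, with an unadjusted p of 0.00322 and an adjusted p of 0.206 in limma. Ndufc2 (1375516_at) gave -4.79, -21.5, -11.2 and -14.5 millionths against 9.61, -2.66, -0.76 and -6.19. Control replicate 4 lay below iron-deficient replicate 1 here, and the difference was -13.0 ± 4.69 millionths with an unadjusted p of 0.0297 in limma.

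Ndufc1 (1392530_at) had a wide spread among its controls and a standardised difference of -1.73. Its iron-deficient livers read -78.4, -90.6, -58.5 and -98.8 millionths, close together, whereas its controls read 89.6, -21.3, -62.0 and -6.27. A single control, replicate 3, fell within the iron-deficient range, and the difference was -81.6 ± 31.8 millionths. Without control replicate 1 it was -51.7 millionths. Ndufa11 (1375220_at), a multi-pass subunit of the membrane, gave -9.09, -9.44, -3.16 and -14.3 millionths against 6.44, -7.51, -0.90 and 1.96. Control replicate 2 overlapped the iron-deficient livers, and the difference was -8.99 ± 3.61 millionths with an unadjusted p of 0.0437 in limma. Among the other 3, Ndufa3 differed by -17.3 ± 11.1 millionths. Ndufa13, also known as GRIM-19, differed by -1.54 ± 1.80 and Ndufa8, an intermembrane-space subunit, by -0.408 ± 1.82, both within their SE.

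In the distal membrane arm 11 of 12 genes read lower, with a median standardised difference of -1.13, and 4 had an unadjusted p under 0.05. Ndufb5 (1388304_at), an integral subunit of the arm, stood at -7.09, -11.7, -11.1 and -12.1 millionths in iron deficiency and at -2.26, -0.20, 3.60 and -1.14 in controls. Both groups were tight, and the nearest livers of the groups were 4.83 millionths apart. The difference of -10.5 ± 1.78 millionths had an unadjusted p of 7.66e-04 and an adjusted p of 0.131 in limma, which ran from 0.141 to 0.301 with each liver left out. Ndufb7 (1388343_at), a cysteine-rich subunit facing the intermembrane space, gave -26.3, -55.0, -38.5 and -60.7 millionths against 0.17, -13.2, 21.5 and -8.41. The Ndufb7 groups were apart as well, with a difference of -45.1 ± 10.5 millionths and an unadjusted p of 0.00417 in limma. Ndufb2 (1389012_at) read -11.4, -17.5, -15.8 and -33.0 millionths in iron deficiency and 6.08, -11.0, 5.81 and -0.88 in controls. Its groups were separated by less than 1 millionth, between iron-deficient replicate 1 and control replicate 2, and the difference was -19.4 ± 5.95 millionths.

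Ndufb4 (1371371_at) had -3.27, -4.85, -9.29 and -12.1 millionths in iron deficiency against 4.73, -3.59, 0.62 and -1.76, with an overlap of 1 liver on each side and a difference of -7.38 ± 2.68. RefSeq lists 7 pseudogenes and 4 like-named genes for Ndufb4, the most of any member, and whether its probes distinguish them was not tested. The other 8 genes of the arm had an unadjusted p of 0.131 or more in limma. Ndufb9, of the LYR family, differed by -2.30 ± 1.33 millionths, Ndufb6 by -1.39 ± 1.16 and Ndufab1, the mitochondrial acyl carrier protein, by -2.10 ± 1.76. Ndufb11, the other X-linked member, had the tightest values of all, with an SD of 0.16 millionths in iron deficiency and 0.63 in controls, and a difference of -0.580 ± 0.759. Ndufb3, Ndufb10 and Ndufb8 differed by -0.860 ± 1.20, -3.85 ± 6.08 and -0.885 ± 15.7 millionths. Ndufb1 (1373193_at), a single-pass membrane subunit, was the sole gene of the arm to read higher, at 0.50, 4.67, -0.63 and -4.03 millionths against 1.17, -2.46, 2.00 and -0.70. That difference of 0.127 ± 2.08 millionths was far below its SE and turned to -1.39 without iron-deficient replicate 2.

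Ndufa4l2 (1389018_at), the paralogue of Ndufa4 and a known target of hypoxia-inducible factor, had the smallest p of the 31. Iron-deficient livers read -15.0, -16.0, -18.1 and -23.1 millionths and controls -5.17, 4.49, 3.18 and -2.51, with no overlap. The difference was -18.0 ± 2.88 millionths, with an unadjusted p of 5.39e-04 and an adjusted p of 0.123 in limma, at the near-median level given above. Ndufa4 (1371323_at) read -6.34, 0.32, -3.87 and -5.59 millionths against 1.44, -1.65, 2.04 and -1.82, an overlap made by iron-deficient replicate 2. Its difference was -3.87 ± 1.85 millionths, with an unadjusted p of 0.0778 in limma.

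**Figure D2:**
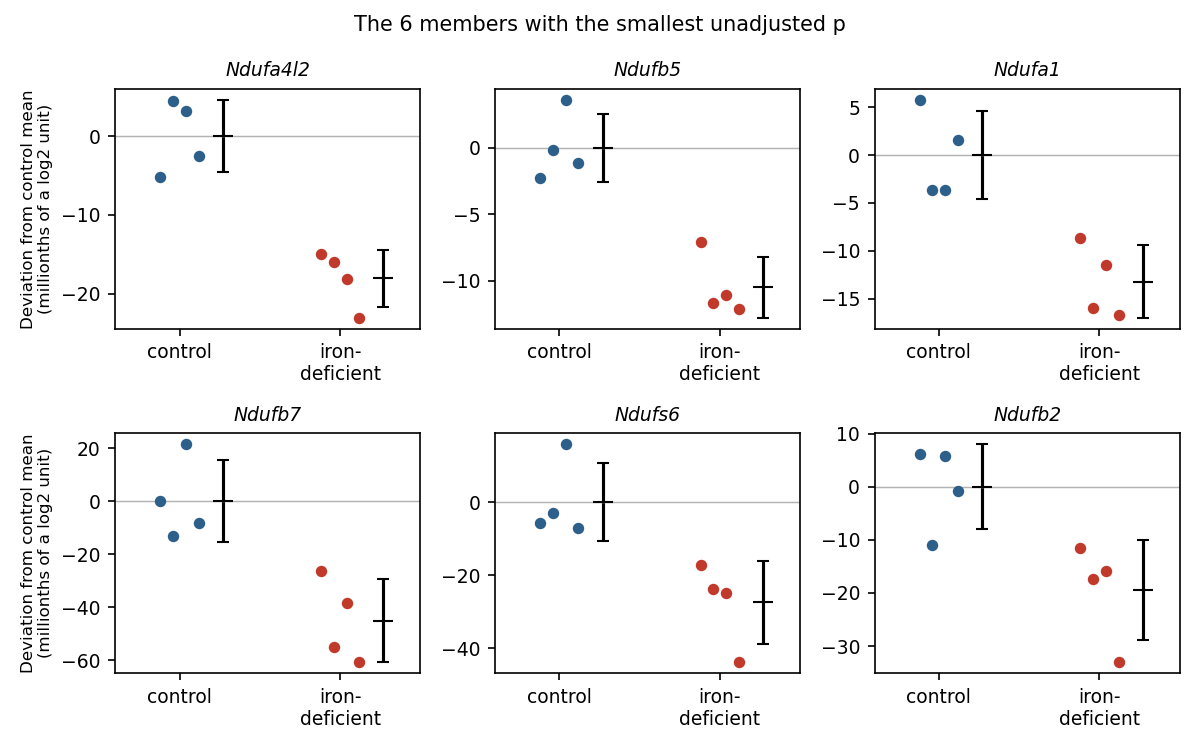
Deviation from the control mean (y axis, millionths of a log2 unit) for the 6 genes with the smallest unadjusted p, with single livers as points and the mean ± SD (n = 4) as black bars beside them. All 4 iron-deficient livers lie below all 4 controls in each panel, and the scale differs between panels, with differences between the means from -10.5 millionths for Ndufb5 to -45.1 for Ndufb7.

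The members also shared an order of the livers within each group. Iron-deficient replicate 4 was the lowest of its group for 24 of 31 genes, whereas it was lowest for 28.5% of all genes. Among controls, replicate 2 was lowest for 20 of 31 genes, against 23.4% of all genes, and replicate 3 was highest for 16, against 29.8%. In within-group SDs, the median member stood at -0.854, -1.27, -1.32 and -2.13 in iron-deficient replicates 1 to 4 and at 0.402, -0.857, 0.770 and -0.185 in controls 1 to 4. Control replicate 2 thus read as low as iron-deficient replicate 1 at the median, and the groups overlapped there. This order was not particular to the members. For the 5 iron-sulphur subunits of complex I, iron-deficient replicate 4 had the lowest median of its group (-2.7). Among controls, their median was lowest in replicate 2 (-0.671) and highest in replicate 3 (0.757). All 4 iron-deficient livers were below the control mean for 20 of the 31 genes, as they were for 18.4% of all genes. Without iron-deficient replicate 4, 7 members rather than 12 had an unadjusted p under 0.05 in limma, all lower, beside 6.27% of all genes. Without control replicate 2, all 31 genes read lower and 13 had such a p. Of all genes, 54.5% then read lower, and 5.91% were lower with such a p.

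Other subunits of the chain gave a backdrop. Of the 5 iron-sulphur subunits of complex I, 4 read lower and 1 higher, and the median standardised difference was -1.22. Ndufv1, which binds the flavin and accepts electrons from NADH, differed by -36.1 ± 11.0 millionths and Ndufs7, which holds the last cluster before ubiquinone, by -57.1 ± 18.4, with unadjusted p of 0.0150 and 0.0185 in limma. Ndufs8 differed by -20.4 ± 11.4 millionths, Ndufv2 by -9.78 ± 5.96 and Ndufs1 by 1.39 ± 1.81. The median of these 5 lay within the range of the 3 arms, and a difference between subunits with and without clusters was not tested. Assembly factors of complex I were split, 7 lower and 6 higher of 13, with a median standardised difference of -0.14. Ndufaf3 and Ecsit, which act early in assembly, differed by -16.7 ± 4.78 and -22.2 ± 7.43 millionths, with unadjusted p of 0.0112 and 0.0217 in limma, and Nubpl, which delivers iron-sulphur clusters to complex I, by -15.2 ± 11.7.

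Among complexes II to V, 31 of 41 genes read lower, and 7 of them had an unadjusted p under 0.05 in limma, with none higher. By complex, 2 of 4 genes were lower in complex II, 7 of 8 in complex III, 9 of 15 in complex IV and 13 of 14 in complex V, with median standardised differences of 0.16, -1.02, -1.11 and -0.76. Sdhb, the iron-sulphur subunit of complex II, differed by -2.40 ± 1.78 millionths, Uqcr11 of complex III by -20.2 ± 4.58, Cox8a of complex IV by -14.8 ± 3.23 and Atp5f1b, the catalytic beta subunit of ATP synthase, by -15.0 ± 3.50. Regulators of mitochondrial gene expression gave 9 lower of 15, with a median of -0.57. Nrf1, which encodes the factor behind the motif named above, differed by -9.99 ± 2.40 millionths (limma unadjusted p = 0.00489), Polg, the mitochondrial DNA polymerase, by -336 ± 102 and Polrmt, the mitochondrial RNA polymerase, by -9.98 ± 4.02. Yy1 itself differed by 6.07 ± 4.51 millionths and Gabpa by 14.9 ± 6.91. No gene of these lists passed the adjusted threshold.

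**Figure D3:**
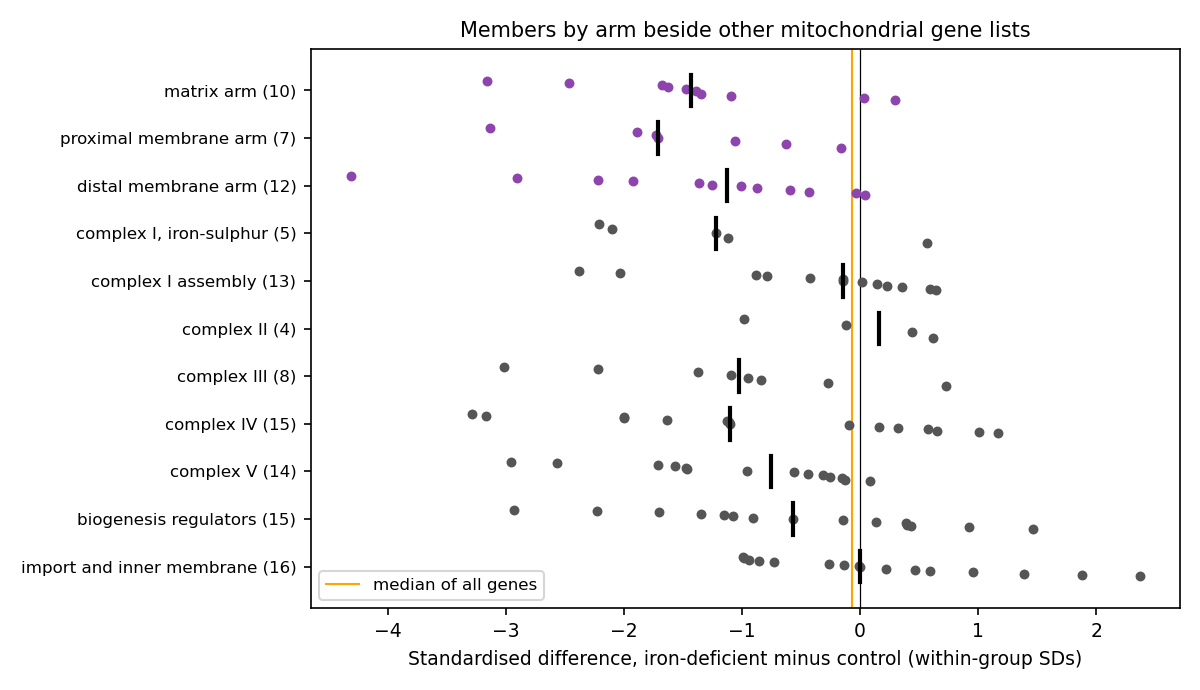
Standardised difference (x axis, iron-deficient minus control, in within-group SDs) of each gene as a point, by list (y axis, number of genes in brackets), with the median as a black bar and the median of all genes (-0.07) as an orange line. The 3 arms of complex I have medians of -1.43, -1.72 and -1.13, the iron-sulphur subunits -1.22 and the assembly factors -0.14.

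Facts of the whole data set bear on these values as follows. Hepatocyte markers, with control levels from 10.5 to 15.0 on the log2 scale, were split, with 7 higher, 6 lower and 1 at 0, and their summed level ran from 194.2980 to 194.3001 in iron-deficient and from 194.2977 to 194.2994 in control livers. Endothelial markers read higher for 11 of 14 genes, with sums from 122.3768 to 122.3796 against 122.3719 to 122.3730, stellate cell markers for 11 of 15 (116.4328 to 116.4471 against 116.4253 to 116.4306) and Kupffer cell markers for all 12 (116.0815 to 116.0874 against 116.0764 to 116.0795). Of these 3 lists only Hgf, Lum and Ngfr lay below the 25th percentile of probe sets. A sum rests mainly on the genes with the largest deposited differences, and so does not describe its whole list. Lyz2 differed by 5966 millionths among Kupffer markers, where Csf1r differed by 1.7. The largest differences were 3835 millionths for Lum (stellate), 2461 for Flt1 (endothelial) and 898 for Tat (hepatocyte). Median standardised differences were 0.16 for hepatocyte, 1.69 for endothelial, 1.33 for stellate and 0.71 for Kupffer markers. The 3′ to 5′ difference of the Gapdh control probe sets, a sign of RNA integrity, averaged 1.16963 in the iron-deficient group and 1.16974 among controls on the log2 scale (exact permutation test, two-sided p = 0.0571, where 0.0286 is the smallest possible). For actin the same difference was 1.407 against 1.408 (exact permutation test, two-sided p = 0.114), and it was lowest in iron-deficient replicate 4. The part of cell types and of RNA integrity in the members' lower values was not tested.

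**Figure D4:**
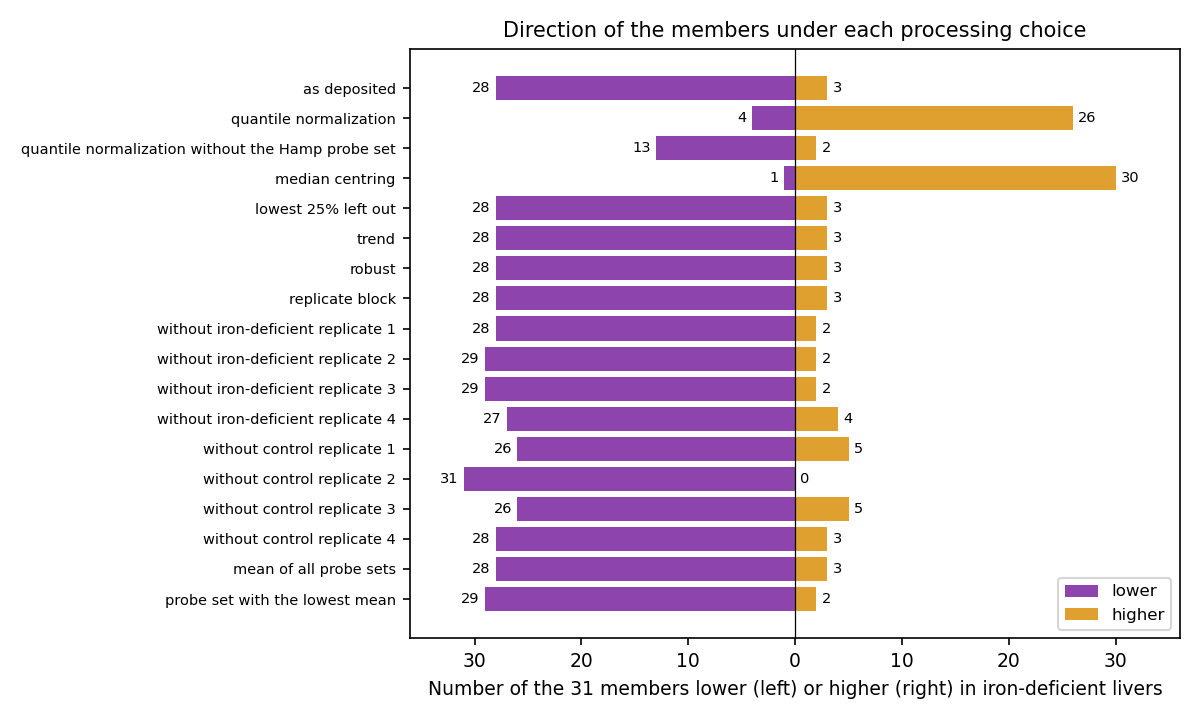
Number of the 31 genes that read lower (left of 0) or higher (right of 0) in iron-deficient livers under each processing choice (y axis). As deposited, 28 were lower, and between 26 and 31 were lower with any 1 liver left out. Of all genes, 52.8% were lower as deposited, and 50.8% to 54.7% with 1 liver left out. Quantile normalization left 4 lower and 26 higher, the same without the Hamp probe set 13 lower and 2 higher with 16 at exactly 0, and median centring 1 lower and 30 higher.

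The direction of the members rests on the scale of the deposited values. Hamp, which encodes hepcidin, read from 15.99 to 16.10 in controls and from 6.93 to 10.58 in iron-deficient livers on the log2 scale, and so left the top of the ranking in iron deficiency. Quantile normalization replaces each value by the mean, over the arrays, of the values at its rank. The gap from a member to its neighbours in rank had a median of 1495 millionths, and was larger than the member's own difference for all 31 genes. Quantile normalization without the Hamp probe set gave 16 members no difference at all, with 13 lower and 2 higher. Median centring added 50.6 millionths to every difference, so that the members' median difference of -5.54 millionths became 45.0, with an SE from 212 to 218 millionths for each gene named, while 9.19% of all genes remained lower.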

How the data were processed

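Liver RNA of 8 rats was labelled with biotin from 2 ug of total RNA and hybridised to Affymetrix arrays, per the labels' protocols. The authors deposited 1 log2 value per probe set and array; the unit was read from the values (5.32 to 16.1), and probe summary and normalization are not given in the sources used here. Array medians ran from 7.1199 to 7.1207. Of 31099 probe sets, 57 controls were left out. Of the 31042 tested, 20826 had 1 symbol in the platform annotation, 436 several and 9780 none; symbols were updated by gene identifier for 20758. Iron-deficient livers were compared with controls in limma 3.58.1 (R 4.3.3) by lmFit and eBayes, with Benjamini-Hochberg adjustment over all tested probe sets and a threshold of 0.05. The script was tested on simulated data. The 4 arrays per group limit the precision.

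Members and gene lists were chosen with earlier results of these data known. Values in every liver are given for the 12 members with the smallest unadjusted p, for Ndufs3, Ndufa4 and Ndufa4l2 and for members that read higher; from other lists up to 3 genes with the smallest p and all 5 iron-sulphur subunits. Yy1 and Gabpa were added after their values were seen, for their motifs. Alternatives were other normalizations, a filter on low probe sets, other variance models, a replicate block, other probe sets of a gene and each liver left out.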

Additional observations from a re-analysis of the deposited data

Results flagged for a closer look

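Of 62 groups of 4 livers (31 genes in 2 groups), 2 held a liver standing apart from the other 3 by Dixon's criterion on the gap to the next liver as a share of the group's range. Chance gives about 1 in 20 such groups. For Ndufs3, control replicate 3 read 16.04 millionths above the control mean, a gap of 0.846 of the range. For Ndufb10, control replicate 1 read 15.88 millionths above it, a gap of 0.928 of the range.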

How the results depend on the processing

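Counts and directions held with the lowest 25% of probe sets left out, with trended or robust variances, with the mean of all probe sets and with each gene's lowest probe set, with counts within 1.5 times of those as deposited and Ndufv3, below, as the exception in direction among the genes named. With 1 liver left out, the number of genes lower ran from 26 to 31, the median standardised difference from -1.76 to -1.10 and the number lower with an unadjusted p under 0.05 from 7 to 13, and none passed the adjusted threshold. The smallest of these, 7, came without iron-deficient replicate 4. Over all genes, the share lower ran from 50.8% to 54.7% with 1 liver left out. The share lower with an unadjusted p under 0.05 in limma ran from 5.49% to 8.06%. With the replicate number as a block, 28 genes were lower, 8 had an unadjusted p under 0.05, none passed and the median was -1.52. Of all genes, 52.8% were lower in that setting, and 6.16% were lower with such a p. Same-numbered livers did not deviate together (r from -0.111 to 0.025 over all probe sets). These correlations gave no sign of pairing by number, but they cannot exclude it.

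Under quantile normalization 4 genes were lower, the median standardised difference was 2.48, 0 were lower with an unadjusted p under 0.05 and 15 passed the adjusted threshold, beside 1093 of all 31042 probe sets (10 as deposited) and 40.6% of all genes lower. Leaving out the Hamp probe set made these 13, 0, 4 and 1, the last being Ndufb10, beside 83 probe sets past the threshold and 57.8% of all genes lower. Under median centring they were 1, 0.152, 0 and 0, beside 63 probe sets past the threshold and 9.19% of all genes lower. How these normalizations are built is described in the report, and the cause of the changes in direction was not tested. Differences that turned higher under quantile normalization, in millionths, were 63.0 (Ndufa4l2), 3899 (Ndufb5), 2795 (Ndufa1), 1315 (Ndufb7), 636 (Ndufb2), 1845 (Ndufa12), 2087 (Ndufb4), 1121 (Ndufc1), 874 (Ndufa11), 601 (Ndufs3) and 4025 (Ndufa4). Without Hamp, Ndufa4l2 (6.00) and Ndufb7 (149) turned higher and Ndufv3 (-564) and Ndufa5 (-178) lower. Under median centring Ndufa4l2 (32.5), Ndufb5 (40.1), Ndufa1 (37.4), Ndufb7 (5.46), Ndufs6 (23.2), Ndufb2 (31.1), Ndufa12 (48.1), Ndufc2 (37.6), Ndufb4 (43.2), Ndufa11 (41.6), Ndufs3 (36.3) and Ndufa4 (46.7) turned higher. Ndufv3 turned lower with its lowest probe set (-12.8). With 1 liver left out, Ndufv3 ran from -9.30 to 55.0, Ndufb1 from -1.39 to 1.51 and Ndufa5 from -10.7 to 5.83.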

Other observations

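Genes of mitochondrial protein import, outer membrane channels and inner membrane structure did not share the members' direction. Of 16 measured, 8 read lower and 7 higher with 1 at 0, and the median standardised difference was -0.006. Tomm20, a receptor of the import channel, differed by 12.0 ± 3.50 millionths and Vdac3, a porin of the outer membrane, by 10.7 ± 3.89, with unadjusted p of 0.0119 and 0.0308 in limma and no overlap between the groups. Cs, the citrate synthase often read as a measure of mitochondrial content, differed by 13.4 ± 6.55 millionths. None passed the adjusted threshold, and the difference between this list and the members was not tested.

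Across the 31 members, log2 level and standardised difference were hardly related (Pearson r = 0.06, as a description over genes measured on the same arrays). The members lie on 15 rat chromosomes, counted over the 29 with a promoter entry. RefSeq lists a pseudogene by name for 15 of the 31.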
